A study of Homo sapiens with 4 samples.

Results

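The integrin subunit genes described here are ITGA2, ITGA3, ITGA5, ITGA6, ITGAV, ITGB1, ITGB4, ITGB5, ITGB6 and ITGB8. They were taken by symbol from the deposited gene table, where each of the 10 has 1 row among 58174 genes. They are 5 alpha and 5 beta subunits of the 26 integrin subunit genes of the table. Total RNA of 2 human lung cancer lines was sequenced 48 h after transient transfection: HCC827 given siRNA to CDH3 (called siCDH3), HCC827 given control siRNA (siCTR), H1299 given siCDH3 and H1299 given siCTR. HCC827 derives from an adenocarcinoma and carries a mutant EGFR with an in-frame deletion. H1299 derives from a lymph node metastasis of a non-small cell carcinoma of the lung. CDH3 encodes P-cadherin, an epithelial adhesion protein. Each of the 4 groups is 1 library of 1 established line, so differences inside a line stand without replicates, and nothing states that the libraries came from separate cultures.

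Integrins are cell surface receptors made of an alpha and a beta subunit, which bind the extracellular matrix outside the cell and link to actin or keratin filaments inside it. Alpha-3 and alpha-6 form laminin receptors, alpha-6 with beta-4 anchors hemidesmosomes of epithelia, and alpha-2 with beta-1 binds collagen. Alpha-5 with beta-1 is the main fibronectin receptor, and alpha-v pairs with several beta subunits to bind ligands with the RGD peptide. Among those pairs, alpha-v with beta-6 or beta-8 is known for activating latent TGF-beta, and beta-6 is largely an epithelial protein.

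The promoters of the 4 members with a single entry in the RefSeq promoter table (GRCh38.p14) are shown. They include 3 genes with higher levels in HCC827 (ITGB6, ITGB8 and ITGA2) and ITGA5, whose deposited level was close to equal in the lines. Of the 10 members, 8 have an entry, and ITGA3 and ITGB4 have none. Each sequence runs 5′ to 3′ on the gene's strand from 250 bases before the listed start to 50 bases from it on, and capitals mark a match, on either strand, to any of 3 motifs. The first, TGANTCA, is bound by AP-1. The second, CAGGTG, is an E-box bound by repressors such as ZEB1. The third, GGGCGG, is the GC box bound by SP1. A match is a description of letters and not a site in use.
ITGB6: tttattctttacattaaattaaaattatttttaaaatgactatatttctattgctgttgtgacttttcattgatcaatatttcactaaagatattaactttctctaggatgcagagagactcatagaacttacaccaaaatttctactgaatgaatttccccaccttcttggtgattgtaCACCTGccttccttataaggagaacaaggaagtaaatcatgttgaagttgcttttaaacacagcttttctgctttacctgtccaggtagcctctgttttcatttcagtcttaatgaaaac
ITGB8: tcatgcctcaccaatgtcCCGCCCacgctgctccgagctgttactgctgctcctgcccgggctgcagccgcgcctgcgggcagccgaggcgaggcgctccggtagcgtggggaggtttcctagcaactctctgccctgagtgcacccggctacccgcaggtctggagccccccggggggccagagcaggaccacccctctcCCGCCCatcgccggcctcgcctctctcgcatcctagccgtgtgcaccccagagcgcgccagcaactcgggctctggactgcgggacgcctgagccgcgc
ITGA2: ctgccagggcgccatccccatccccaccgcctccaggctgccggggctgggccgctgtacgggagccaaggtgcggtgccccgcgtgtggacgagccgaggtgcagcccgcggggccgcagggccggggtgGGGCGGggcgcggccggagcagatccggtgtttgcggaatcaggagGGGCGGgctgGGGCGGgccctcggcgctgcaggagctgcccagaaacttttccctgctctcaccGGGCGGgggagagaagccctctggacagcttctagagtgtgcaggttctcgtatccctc
ITGA5: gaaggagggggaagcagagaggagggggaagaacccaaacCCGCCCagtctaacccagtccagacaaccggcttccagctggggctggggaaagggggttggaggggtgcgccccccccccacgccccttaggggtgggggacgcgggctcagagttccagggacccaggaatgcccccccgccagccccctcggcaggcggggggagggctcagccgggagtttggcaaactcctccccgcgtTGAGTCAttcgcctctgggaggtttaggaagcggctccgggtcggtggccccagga
The windows are chr2:160200223-160200522 on the minus strand for ITGB6, chr7:20330650-20330949 on the plus strand for ITGB8, chr5:52989102-52989401 on the plus strand for ITGA2 and chr12:54419217-54419516 on the minus strand for ITGA5. The ITGB6 window has 0 CpG dinucleotides and a GC content of 31.7%, and 3.96% of the 35116 promoters in the table have no CpG. The ITGB8, ITGA2 and ITGA5 windows hold 28, 27 and 16 CpG. The CAGGTG letters occur once among these windows, in ITGB6 at -70 on the opposite strand, and in 20.6% of all promoters. TGANTCA occurs in ITGA5 at -6 and in 7.71% of all promoters. GGGCGG occurs 4 times in ITGA2, 2 times in ITGB8, 1 time in ITGA5 and not in ITGB6, against 45% of all promoters with at least 1 match, and the capital runs do not touch each other.

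Values are TPM, a measure of transcript abundance. They divide reads by transcript length and scale each library to a fixed sum, so levels can be set side by side between genes but keep no read depth. Genes at 5 TPM or more numbered 10713 to 11329 in the libraries. Mitochondrially encoded genes, rRNA included, took 34.4% of TPM in HCC827 siCDH3, 36.2% in HCC827 siCTR, 16.4% in H1299 siCDH3 and 13.5% in H1299 siCTR, which lowers all other TPM in HCC827. CDH3 was at 78.8 TPM in HCC827 siCDH3 against 173 in HCC827 siCTR, and at 0.169 TPM in H1299 siCDH3 against 1.21 in H1299 siCTR, so H1299 had little CDH3 in its control library. HCC827 carried all 6 epithelial markers compared at 5 TPM or more and H1299 3 of 6. Of 4 lung lineage markers, HCC827 carried 3 and H1299 0, and of 4 mesenchymal markers 2 in HCC827 and 4 in H1299. The RNA is from bulk cultures, in which fewer cells with a transcript and less transcript per cell cannot be told apart.

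ITGB1, the shared beta subunit of most matrix receptors, and ITGA3, a laminin receptor subunit, were the most abundant members in every library. ITGB1 had 581 TPM in HCC827 siCDH3, 491 in HCC827 siCTR, 430 in H1299 siCDH3 and 574 in H1299 siCTR. Its share of the summed TPM of the 8 beta subunit genes lay between 74.5% and 81.3%. ITGA3 had 219 TPM in HCC827 siCDH3, 248 in HCC827 siCTR, 494 in H1299 siCDH3 and 521 in H1299 siCTR. It took 54.7% of the summed TPM of the 18 alpha subunit genes in HCC827 siCDH3, 60.5% in HCC827 siCTR, 75.3% in H1299 siCDH3 and 72.7% in H1299 siCTR. ITGA3 alone stood close to ITGB1 in H1299, at 1.15-fold of ITGB1 in siCDH3 and 0.908-fold in siCTR, whereas in HCC827 it was at 0.378-fold in siCDH3 and 0.505-fold in siCTR. Below ITGB1 and ITGA3 there was a gap to the next member in each library, 3.56-fold and 4.47-fold in HCC827 siCDH3 and siCTR. In H1299 the gap below the pair of leading genes was 7.02-fold in siCDH3 and 7.75-fold in siCTR. Below it, neighbours in the order stood within 1.01 to 1.45-fold of each other down to ITGA6 in HCC827, and in H1299 ITGB4, ITGA5, ITGB5 and ITGA6 followed each other within 1.05 to 1.29-fold. ITGAV came next in H1299, 2.69-fold below ITGA6 in siCDH3 and 1.9-fold below ITGA5 in siCTR, and ITGA2 was 3.41-fold and 9.38-fold below ITGAV in siCDH3 and siCTR. With 1 library per group close neighbours cannot be told apart beyond a replicate spread.

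**Figure D1:**
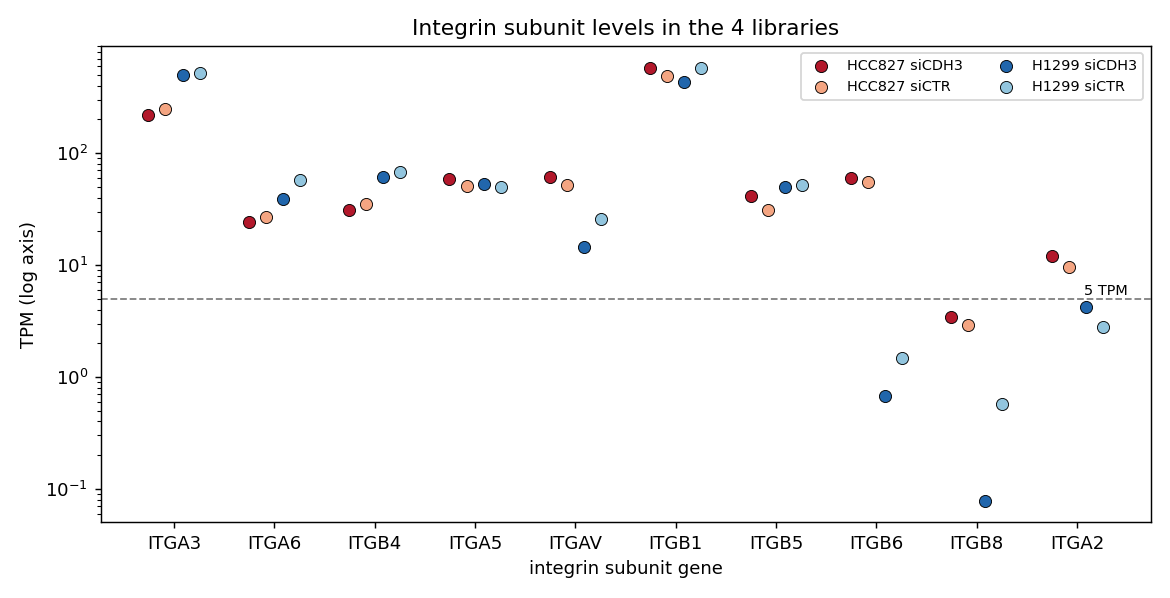
TPM on a log axis of each integrin subunit gene, 1 point per library (HCC827 siCDH3, HCC827 siCTR, H1299 siCDH3, H1299 siCTR, left to right), with a dashed line at 5 TPM. ITGB1 and ITGA3 lie highest, and ITGB6 lies at 59.6 and 55.4 TPM in HCC827 but at 0.678 and 1.47 TPM in H1299.

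Members of the laminin receptors were lower in HCC827 than in H1299. ITGA6 had 24.3 TPM in HCC827 siCDH3 and 26.9 in HCC827 siCTR, against 38.8 in H1299 siCDH3 and 57 in H1299 siCTR. ITGB4, whose long tail binds plectin in the hemidesmosome, had 30.7 TPM in HCC827 siCDH3 and 34.8 in HCC827 siCTR, against 61.3 in H1299 siCDH3 and 67.3 in H1299 siCTR. For ITGA3, ITGA6 and ITGB4 both HCC827 libraries lay below both H1299 libraries, while those of ITGB1 overlapped in deposited TPM. ITGA6 and ITGB4, which form a pair, stood at a TPM ratio of 0.792 and 0.774 in HCC827 siCDH3 and siCTR, and of 0.633 and 0.847 in H1299 siCDH3 and siCTR.

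Of the alpha-v receptor subunits, ITGAV, ITGB6 and ITGB8 were higher in both HCC827 libraries than in both H1299 libraries. In deposited TPM ITGB5 and ITGB3 were lower and ITGB1 overlapped. Without mitochondrially encoded genes, the HCC827 over H1299 log2 ratio of TPM + 1 of ITGB5 was 0.08 in siCDH3 and -0.28 in siCTR. That of ITGB1 was 0.78 in siCDH3 and 0.21 in siCTR, so ITGB1 was then higher in HCC827 with either siRNA. ITGAV had 61.6 TPM in HCC827 siCDH3 and 52 in HCC827 siCTR, against 14.4 in H1299 siCDH3 and 26 in H1299 siCTR. ITGB6 had 59.6 TPM in HCC827 siCDH3 and 55.4 in HCC827 siCTR, against 0.678 in H1299 siCDH3 and 1.47 in H1299 siCTR. ITGB6 thus ranked among the leading members in HCC827 and was under 5 TPM in H1299. ITGB8 had 3.46 TPM in HCC827 siCDH3 and 2.9 in HCC827 siCTR, against 0.0785 in H1299 siCDH3 and 0.567 in H1299 siCTR. It was under 5 TPM in every library, and its overlap with an antisense gene leaves the difference uncertain. ITGB5, the broadly expressed vitronectin receptor subunit, went the other way in deposited TPM. It had 41.6 TPM in HCC827 siCDH3 and 31.2 in HCC827 siCTR, against 50.2 in H1299 siCDH3 and 51.6 in H1299 siCTR.

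The beta partners of alpha-v other than beta-1 therefore had a different make-up in the lines, measured as shares of the summed TPM of ITGB3, ITGB5, ITGB6 and ITGB8, which do not move with the mitochondrial share. ITGB6 took 56.8% in HCC827 siCDH3 and 61.6% in HCC827 siCTR, against 1.13% in H1299 siCDH3 and 2.29% in H1299 siCTR. ITGB5 took 39.6% in HCC827 siCDH3 and 34.7% in HCC827 siCTR, against 83.8% in H1299 siCDH3 and 80.5% in H1299 siCTR. ITGB3, the classical vitronectin receptor and platelet subunit, took 0.266% in HCC827 siCDH3 and 0.464% in HCC827 siCTR, against 15% in H1299 siCDH3 and 16.3% in H1299 siCTR. ITGB6 exceeded ITGB5 by 1.43-fold in HCC827 siCDH3 and 1.78-fold in HCC827 siCTR, and ITGB5 exceeded ITGB6 by 74-fold in H1299 siCDH3 and 35.2-fold in H1299 siCTR. The counts behind these shares are unknown, so no interval can be given.

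**Figure D2:**
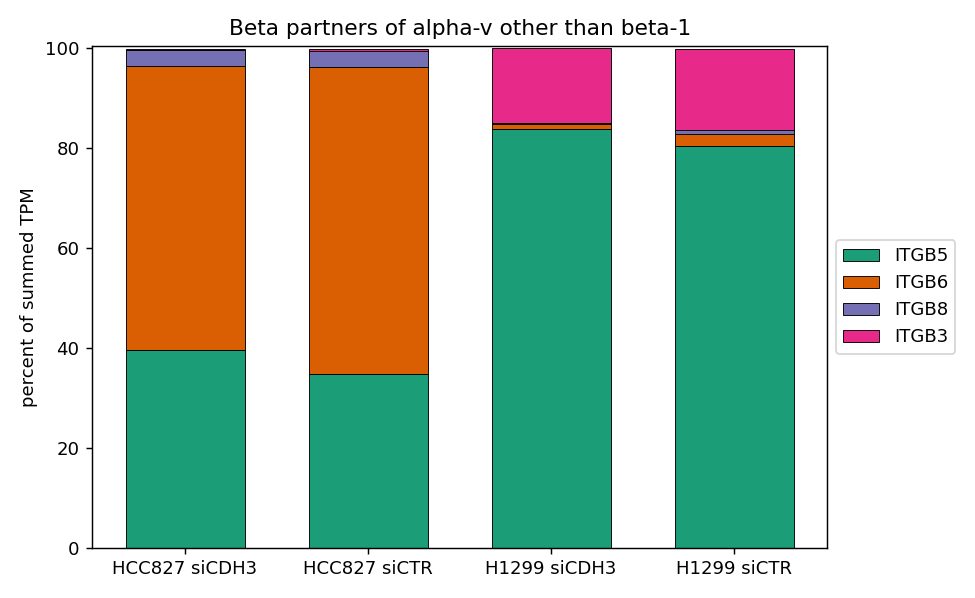
Stacked bars of the share, in percent, of ITGB5, ITGB6, ITGB8 and ITGB3 in the summed TPM of these genes, 1 bar per library. ITGB6 takes 56.8% and 61.6% of the bars of HCC827 siCDH3 and siCTR, and ITGB5 takes 83.8% and 80.5% of those of H1299 siCDH3 and siCTR.

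Among the fibronectin and collagen receptor subunits, ITGA5 was close to equal in the lines in deposited TPM. It had 58.7 TPM in HCC827 siCDH3 and 50.3 in HCC827 siCTR, against 53.5 in H1299 siCDH3 and 49.4 in H1299 siCTR. The groups of ITGA5 overlap on that scale. Without mitochondrially encoded genes ITGA5 was higher in HCC827, at log2 ratios of TPM + 1 of 0.48 in siCDH3 and 0.46 in siCTR. ITGA2, the collagen-binding subunit, was low but higher in HCC827, with 12.1 TPM in HCC827 siCDH3 and 9.53 in HCC827 siCTR, against 4.23 in H1299 siCDH3 and 2.77 in H1299 siCTR. ITGAV and ITGA5, both RGD-binding, stood at a TPM ratio of 1.05 and 1.03 in HCC827 siCDH3 and siCTR, and of 0.27 and 0.526 in H1299 siCDH3 and siCTR.

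The difference between the lines was tested with limma on log2(TPM + 1) over 12941 genes, with siRNA as a block, on 2 libraries per line that differ in siRNA and are not replicate cultures. It called 6 of the 9 members tested at a Benjamini-Hochberg adjusted p under 0.05, where 62.9% of all genes were called, so the share of members is close to the background. ITGB6 was higher in HCC827 by 4.84 ± 0.21 on the log2 scale (limma, SE, adjusted p = 0.00012), ITGAV by 1.5 ± 0.28 (adjusted p = 0.0092) and ITGA2 by 1.40 ± 0.15 (adjusted p = 0.0016). Each of these was higher in 2 of 2 HCC827 libraries than in both H1299 libraries. The SE given by limma draws on a spread pooled over all genes as well as on the gene's own. ITGA3 was lower in HCC827, with a log2 difference of -1.12 ± 0.15 (limma, SE, adjusted p = 0.0031), as were ITGB4 with -0.95 ± 0.15 (adjusted p = 0.005) and ITGA6 with -0.86 ± 0.18 (adjusted p = 0.012). ITGB5 at -0.49 ± 0.18 (limma, adjusted p = 0.07), ITGA5 at 0.08 ± 0.15 (adjusted p = 0.67) and ITGB1 at 0.10 ± 0.21 (adjusted p = 0.69) did not pass. ITGB8 was under 5 TPM throughout and did not enter this fit. It did enter with a filter of 1 TPM, at 1.68 ± 0.23 (limma adjusted p = 0.0038), without mitochondrially encoded genes, at 2.13 ± 0.24 (adjusted p = 0.003), and with no filter (adjusted p = 0.39). An antisense gene overlaps ITGB8, so its difference between the lines is uncertain. ITGA2 and ITGB6 passed the filter through HCC827 alone, which favours a difference between the lines. With TPM recomputed over genes that are not mitochondrially encoded, ITGA6 no longer passed (-0.48, limma adjusted p = 0.06) and ITGA5 did (0.47, adjusted p = 0.045). Over the alternatives with the block, limma adjusted p-values ran from 0.0057 to 0.41 for ITGA6 and from 0.045 to 0.88 for ITGA5, and with no filter on low genes all 6 member calls were lost (0.13 to 0.55). Without mitochondrially encoded genes the genes called split into 4647 higher and 3822 lower in HCC827, in place of 2787 higher and 5351 lower.

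By size, a log2 ratio of TPM + 1 of at least 1 in either direction (2-fold) was counted among genes at 5 TPM or more in at least 1 of the 2 libraries compared. In the siCTR libraries 4 of 9 members passed, beside 41.2% of 12601 genes (13.5% higher and 27.8% lower), with ITGB6 (4.52) and ITGA2 (1.48) higher in HCC827 and ITGA3 (-1.07) and ITGA6 (-1.06) lower. In the siCDH3 libraries, which share no library with these, 4 of 9 passed beside 39.4% of 12542 genes (15.3% higher and 24.2% lower): ITGB6 (5.17), ITGAV (2.02) and ITGA2 (1.32) were higher in HCC827 and ITGA3 (-1.17) was lower. The median log2 ratio was -0.22 for the members past the filter and -0.39 for all genes in siCTR, and 0.13 and -0.23 in siCDH3. The lower calls ended without mitochondrially encoded genes, with the median of all genes set to 0 and with quantile normalization. Without mitochondrially encoded genes ITGAV joined the higher ones in siCTR (1.41) and ITGB8, then past the filter, in siCDH3 (2.52), with ITGA3 standing at -0.82 in siCDH3 and -0.63 in siCTR, and ITGA6 at -0.32 and -0.63. ITGB1 changed sign between the siCDH3 libraries (0.43) and the siCTR libraries (-0.22), and in siCTR also with the scale (0.21 without mitochondrial genes), as ITGB5 did in siCDH3 (-0.27 and 0.08).

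**Figure D3:**
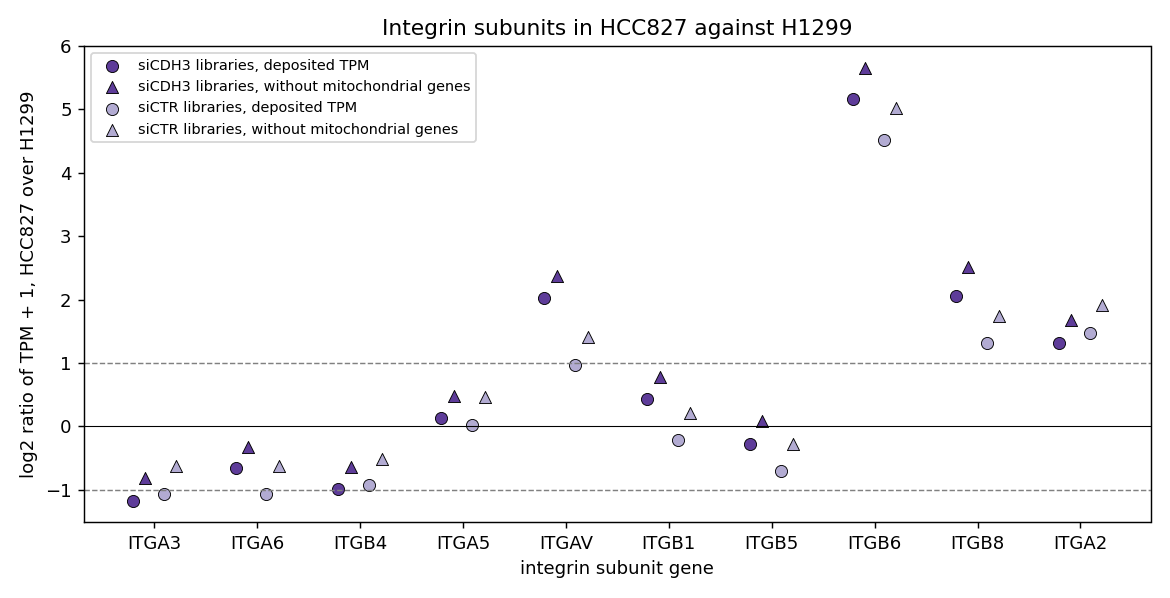
Log2 ratio of TPM + 1, HCC827 over H1299, for each integrin subunit in the siCDH3 libraries (dark) and the siCTR libraries (light), from deposited TPM (circles) and from TPM without mitochondrially encoded genes (triangles), with dashed lines at 2-fold. ITGB6 lies at 5.17 and 4.52 with deposited TPM, and ITGA3, ITGA6 and ITGB4 lie below 0 on both scales.

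Silencing of CDH3 was set against the control siRNA within each line to ask whether integrin subunits differ with it. In HCC827, 0 of 9 members past the filter reached 2-fold, beside 1.84% of 11043 genes (1.01% higher and 0.833% lower). Of these members, 6 were higher and 3 lower in siCDH3, with a median log2 ratio of 0.22 beside 0.03 for all genes, 57.1% of which were above 0. The 3 lower ones were ITGA3 with a log2 ratio of -0.17, ITGA6 with -0.14 and ITGB4 with -0.17. ITGB1, which pairs with ITGA3 and ITGA6 as well, was at 0.24. The highest was ITGB5, with 41.6 TPM in siCDH3 against 31.2 in siCTR, a log2 ratio of 0.40 that 760 of the 11043 genes exceeded. ITGA2 was at 0.32, ITGAV at 0.24, ITGA5 at 0.22 and ITGB6 at 0.10. Each lay between the 5th and 95th percentile of all genes, -0.41 and 0.48. ITGB8, outside the filter, was at 3.46 TPM in siCDH3 against 2.9 in siCTR.

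In H1299, 0 of 7 members past the filter reached 2-fold, beside 2.46% of 11622 genes (0.878% higher and 1.58% lower). Of the 7, 6 were lower in siCDH3, where 35.2% of all genes were above 0. The median log2 ratio of the members was -0.13 and that of all genes -0.11, so the members as a list stood near the median gene. ITGAV was furthest from it, with 14.4 TPM in siCDH3 against 26 in siCTR, a log2 ratio of -0.81 (-0.70 relative to the median of all genes) below which 346 genes lay. It was also the only member past the filter outside the 5th to 95th percentile of all genes, -0.67 to 0.46. ITGA6 was at -0.54, ITGB1 at -0.41 and ITGA5 at 0.11. ITGB4 was at -0.13, ITGA3 at -0.08 and ITGB5 at -0.04, and of these ITGA3 and ITGB5 stood above the median of all genes, by 0.03 and 0.07. ITGA2, ITGB6 and ITGB8 did not reach 5 TPM in H1299. ITGA2 had 4.23 TPM in siCDH3 against 2.77 in siCTR, and ITGB6 had 0.678 TPM in siCDH3 against 1.47 in siCTR. Length and GC content were medians over all annotated transcripts of a gene, and may differ from those of the transcript expressed. As a linear trend they accounted for 9.82% of variance among log2 ratios in H1299 and 0.0373% in HCC827. With the trend removed ITGAV was at -0.66, ITGA6 at -0.42 and ITGB1 at -0.33 in H1299, each nearer to 0. ITGB4 at -0.31, ITGA3 at -0.22 and ITGB5 at -0.13 were further from 0 than before, and ITGA5 was at 0.00.

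**Figure D4:**
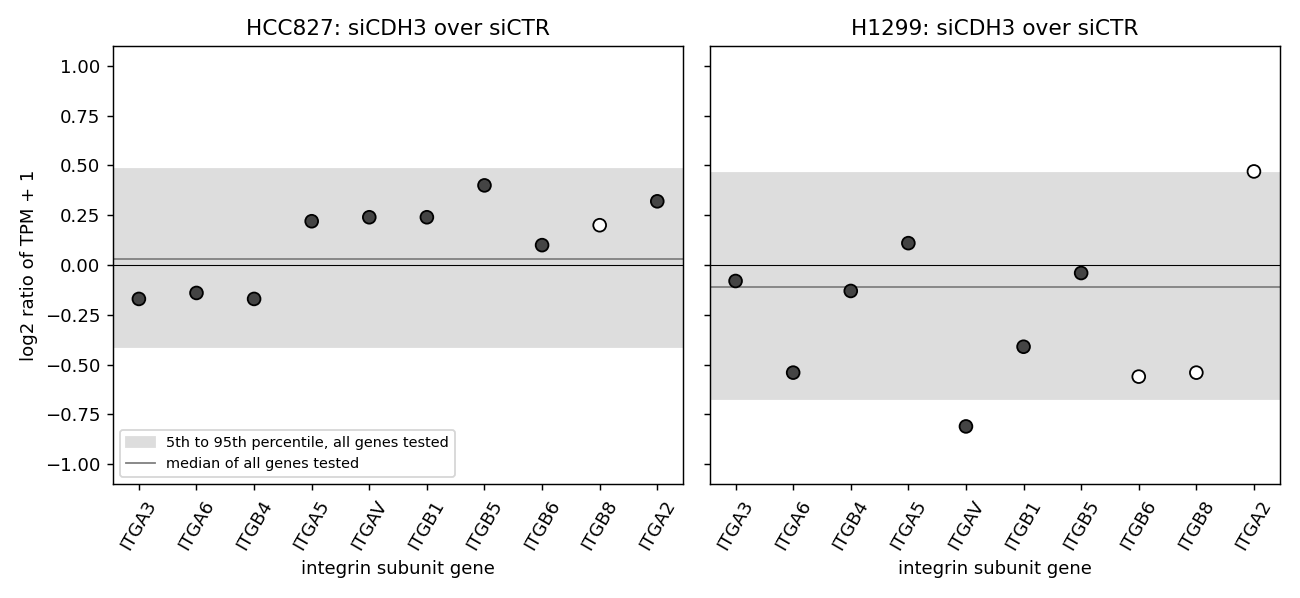
Log2 ratio of TPM + 1, siCDH3 over siCTR, of each integrin subunit in HCC827 (left) and H1299 (right). Filled points passed 5 TPM in at least 1 of the 2 libraries and open points did not, and the grey band spans the 5th to 95th percentile of all genes tested (-0.41 to 0.48 in HCC827, -0.67 to 0.46 in H1299), with a grey line at their median. ITGAV at -0.81 in H1299 is the filled point outside the band.

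Over both lines, limma with cell line as a block called 0 of 9 members for siCDH3 against siCTR, with 0 of them at an unadjusted p under 0.05. It called 1 of 12941 genes (0.00773%), TNFRSF6B, named here after its values were seen, and 581 genes had an unadjusted p under 0.05. The replicate in this test is the line, so each gene's own spread is the difference between the responses of H1299 and HCC827. limma moderates that spread toward a value pooled over all genes, so the SE and p-values reflect both. The mean log2 differences of the members ran from -0.34 ± 0.18 for ITGA6 to 0.39 ± 0.15 for ITGA2 (SE, 2 lines), with limma adjusted p-values of 0.95 for both. ITGAV averaged -0.28 ± 0.28 and ITGB1 -0.09 ± 0.21, because the lines stood on opposite sides of 0. These values do not show that the subunits stayed the same.

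Of the 16 other integrin subunit genes, 7 reached 5 TPM in at least 1 library. ITGB2, the beta subunit of leukocyte integrins, had 43.3 TPM in HCC827 siCDH3 and 42.8 in HCC827 siCTR, against 0.0589 in H1299 siCDH3 and a listed 0 in H1299 siCTR. Its leukocyte alpha partners were low in HCC827, with ITGAL at 0.061 and 0.0278 TPM, ITGAM at 0.173 and 0.229 and ITGAX at 1.05 and 1.28 in siCDH3 and siCTR. Of 6 leukocyte markers, 2 reached 5 TPM in HCC827 (ITGB2 itself and the actin-bundling protein gene LCP1) and 0 in H1299. The summed level was 203 TPM in HCC827 siCDH3, 199 in HCC827 siCTR, 0.422 in H1299 siCDH3 and 0.276 in H1299 siCTR. The defining leukocyte gene PTPRC was at 0 TPM in HCC827 siCDH3 and 0.0349 in HCC827 siCTR. The antisense gene ITGB2-AS1 overlaps ITGB2 and had 13.7 TPM in HCC827 siCDH3 and 12.8 in HCC827 siCTR, and with no strand information its reads cannot be told apart from those of ITGB2.

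Some of the other subunits were higher in H1299, and HCC827 nearly lacked ITGA4, ITGB3 and ITGA10. ITGA4, the alpha subunit of the VCAM1 receptor, had 0.0362 TPM in HCC827 siCDH3 and 0.0671 in HCC827 siCTR, against 18.9 in H1299 siCDH3 and 21.7 in H1299 siCTR. ITGB3 had 0.279 TPM in HCC827 siCDH3 and 0.417 in HCC827 siCTR, against 8.95 in H1299 siCDH3 and 10.5 in H1299 siCTR. ITGA10, a collagen-binding subunit, had 0.0453 and 0.0892 TPM in HCC827 siCDH3 and siCTR, against 6.31 and 8.74 in H1299 siCDH3 and siCTR. ITGA2B, the platelet partner of ITGB3, was at 0.506 and 0.8 TPM in HCC827 siCDH3 and siCTR, against 5.96 and 6.54 in H1299 siCDH3 and siCTR, while the platelet genes PF4, PPBP and GP9 were listed at 0 in each library. ITGA7, a laminin-binding subunit, was at 2.22 and 2.58 TPM in HCC827 siCDH3 and siCTR, against 5.74 and 7.58 in H1299 siCDH3 and siCTR. ITGAE, the E-cadherin-binding subunit, went the other way, at 19.4 and 17.1 TPM in HCC827 siCDH3 and siCTR, against 10.2 and 11.8 in H1299 siCDH3 and siCTR. In the limma fit all 7 of these other subunits tested passed for the line, beside 62.9% of all genes, and 0 of 7 for siCDH3. Of the 7, all but ITGAE passed the 5 TPM filter through a single line, so a difference between the lines was built into the count.

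Ligands and partners, from lists of the pathway, were compared in the same way. Genes under 5 TPM in 1 line entered the counts between the lines through the other line alone, which favours a difference. Among laminin and hemidesmosome genes LAMA3 and COL17A1 entered through HCC827 alone and LAMA2 through H1299 alone. Of 12 laminin and hemidesmosome genes past the filter between the lines, 5 passed 2-fold upward and 5 downward in HCC827, in siCDH3 and in siCTR libraries alike, beside 39.4% of all genes in either direction in siCDH3 and 41.2% in siCTR. LAMA3, a laminin alpha chain gene, was among the higher ones, at 43.1 and 34.6 TPM in HCC827 siCDH3 and siCTR against 1.83 and 2.35 in H1299 siCDH3 and siCTR. The hemidesmosome collagen gene COL17A1 was at 65.9 and 60.3 TPM in HCC827 siCDH3 and siCTR against 0.518 and 0.793 in H1299 siCDH3 and siCTR. The intracellular linkers of the same structure, PLEC and DST, were lower in HCC827, at log2 ratios of -1.66 and -1.24 in siCDH3 and -1.61 and -1.44 in siCTR.

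Of 12 RGD ligand genes past the filter, 3 passed 2-fold upward and 8 downward in HCC827 with either siRNA, beside 13.5% and 27.8% of all genes in siCTR and 15.3% and 24.2% in siCDH3. Of the lower ones FBN1, THBS1, TGFB3, LTBP1 and CTGF were under 5 TPM in HCC827 and passed the filter through H1299 alone. TNC (tenascin-C) had 239 and 187 TPM in HCC827 siCDH3 and siCTR against 5.26 and 7.25 in H1299 siCDH3 and siCTR. TGFB1, whose latent form alpha-v with beta-6 binds, had 38.2 and 36.7 TPM in HCC827 siCDH3 and siCTR against 407 and 389 in H1299 siCDH3 and siCTR. LTBP1, which tethers latent TGF-beta to the matrix, had 0.356 and 0.394 TPM in HCC827 siCDH3 and siCTR against 10.5 and 12.1 in H1299 siCDH3 and siCTR. Of the other lists, collagen ligands had 2 genes higher and 2 lower by that rule among 5 past the filter. In siCTR, integrin activators and inactivators had 1 higher and 3 lower of 12, focal adhesion adaptors and kinases 2 and 7 of 13, tetraspanin and membrane partners 2 and 6 of 10 and trafficking genes 2 and 3 of 11. RAB25, an epithelial recycling GTPase that binds beta-1, had 72.9 and 71.6 TPM in HCC827 siCDH3 and siCTR against 0.0845 and a listed 0 in H1299 siCDH3 and siCTR.

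With siCDH3, 2 of the listed partner genes reached 2-fold, each in 1 line, beside 1.84% of all genes in HCC827 and 2.46% in H1299. They were 1 of 13 focal adhesion genes past the filter in HCC827 and 1 of 10 trafficking genes in H1299. No gene past the filter in the other partner lists reached 2-fold. VCL (vinculin, which binds talin at adhesions) had 58.1 TPM in HCC827 siCDH3 against 26.2 in HCC827 siCTR, a log2 ratio of 1.12, and 142 TPM in H1299 siCDH3 against 187 in H1299 siCTR (-0.39). RAB11A, which recycles integrins to the surface, had 32.1 TPM in H1299 siCDH3 against 81.6 in H1299 siCTR (-1.32), and 42.2 TPM in HCC827 siCDH3 against 20.6 in HCC827 siCTR, just under the 2-fold rule. Of 11 integrin activators and inactivators past the filter in HCC827, 7 were above 0 and 4 below, none reached 2-fold, and the median was 0.03, as over all genes. The kindlin and talin genes, which act on the beta tail, had among the larger ratios in siCDH3 against siCTR: FERMT2 at 24.6 TPM against 16.2, FERMT1 at 17.5 against 11.8 and TLN1 at 44 against 31.9. RAP1B, a GTPase upstream of talin, was at 95.7 TPM in siCDH3 against 123 in siCTR (-0.36). In H1299, FERMT2 was at 54.8 TPM in siCDH3 against 69.6 in siCTR and TLN1 at 107 against 106. Medians of the lists in HCC827 lay between 0.01 and 0.13 beside 0.03 for all genes, and in H1299 between -0.22 and 0.02 beside -0.11. For siCDH3, limma over both lines called 0 genes of these lists.

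The listed gene with the profile most like each member was found over the 4 libraries, as the smallest root mean square difference of centred log2(TPM + 1) among 90 genes. It was FN1 for ITGB1 (0.03), RAB21 for ITGA6 (0.04), RAP1B for ITGA3 (0.07), ITGA3 for ITGB4 (0.08), EHD1 for ITGA5 (0.10), TNC for ITGB6 (0.11) and CD81 for ITGB5 (0.12). For ITGB8 (0.10) and ITGAV (0.15) it was EDIL3, and the poorest match was LAMB1 for ITGA2 (0.23). FN1, which encodes fibronectin, had 119 and 96.8 TPM in HCC827 siCDH3 and siCTR and 88.1 and 119 in H1299 siCDH3 and siCTR. In both ITGB1 and FN1 the siCDH3 ratio was above 0 in HCC827 (0.24 and 0.29) and below 0 in H1299 (-0.41 and -0.43). FN1 was picked for its likeness over these same libraries, so the shared directions follow from that choice. The likeness rests on 4 libraries of 2 lines. Exons of 6 members overlap another gene of GENCODE 29. The antisense gene AC004130.1 had 5.74 and 3.31 TPM in HCC827 siCDH3 and siCTR, which is above ITGB8 itself. It had 0.222 TPM in H1299 siCDH3 and a listed 0 in H1299 siCTR. The level of ITGB8 and its difference between the lines are uncertain because of AC004130.1. At ITGA6, AC078883.1 reached 4.81 TPM in H1299 siCTR.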

How the data were processed

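The authors deposited TPM for 58174 genes, with 1 column per library. Genome build hg19 was used, per the submitters' processing notes. Aligner, counter, strandedness and depth: not given in the sources used here, so no counting interval is given.

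Log2 ratios of TPM + 1 were taken among genes at 5 TPM or more in at least 1 library compared, and 2-fold differences were counted with no test within a line. A model in limma 3.58.1 (R 4.3.3) held line and siRNA as terms over all 4 libraries, each serving as the block for the other as the labels give them. It was tried on simulated data in which a changed gene had the same effect in both lines. Responses that differ between the lines were not simulated. The model left 1 residual degree of freedom per gene, and p-values were adjusted by Benjamini-Hochberg over all genes. The variance of each gene was drawn toward a value pooled over all genes, so SE and p-values depend in part on that pool. Lengths, GC content and overlaps came from GENCODE 29 and promoters from RefSeq. Members and lists were chosen with earlier results of these data known. The text names all members, CDH3, other subunits at 5 TPM, the nearest profiles and, per list, genes at 2-fold with siCDH3 and up to 4 with the largest ratios. PLEC, LTBP1 and marker genes fall outside that rule and were chosen after their values were seen.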

Additional observations from a re-analysis of the deposited data

Results flagged for a closer look

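The response to siCDH3 went in opposite directions in the lines for 3 of the 7 members measured in both, where 49.6% of 9724 genes did so, and the difference was not tested, since each line has 1 library per siRNA. For ITGAV the log2 ratio was 0.24 in HCC827 and -0.81 in H1299, a difference of 1.05 that 255 of 9724 genes exceeded. For ITGB1 it was 0.24 in HCC827 and -0.41 in H1299, a difference of 0.66. For ITGB5 it was 0.40 in HCC827 and -0.04 in H1299, a difference of 0.44. The H1299 value of ITGB5 was 0.07 with the median of all genes set to 0 and 0.01 without mitochondrially encoded genes. With that median set to 0, ITGA3 was at 0.03 in H1299 and -0.20 in HCC827. Which members had opposite directions thus depends on the scale.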

How the results depend on the processing

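The count of members at 2-fold stayed at 0 for siCDH3 in HCC827 under all 11 alternatives run. In H1299 it became 1 (ITGAV) with a 1.5-fold rule, past which 10.3% of genes lay, and stayed at 0 under the other 10. Between the lines in siCTR the count of 4 became 2 with a pseudocount of 5 TPM, beside 31.2% of all genes. It became 7 with a 1.5-fold rule (61.8% of all genes) and 1 with a 4-fold rule (17.5%). In siCDH3 the count of 4 became 2 with a 4-fold rule (17.4% of all genes) and 6 with a 1.5-fold rule (60%). Setting the median of all genes to 0 or quantile normalization left 3 higher and 0 lower with either siRNA, beside 37.4% to 38.2% of all genes. The 1 gene limma called for siCDH3 was lost (0 genes) with no filter, without mitochondrially encoded genes, with quantile normalization and with no replicate block, where limma left 1985, 679, 639 and 20 genes at an unadjusted p under 0.05. For the line, limma called 51 genes and 0 members with no filter (the cause was not tested), and 8240 genes with 6 members with no replicate block, the pairing being by the labelled line and siRNA. ITGB5 passed for the line with a pseudocount of 5 TPM (adjusted p = 0.043) and an intensity trend (adjusted p = 0.048), in a range of 0.043 to 0.66 over the limma alternatives with the block. Leaving out a library leaves the blocked fit no residual degrees of freedom. Depth is unknown, and values under 5 TPM, ITGB8 among them, have unknown precision.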
